A study of Mus musculus with 10 samples.

Results

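Among the 55487 genes of the count tables, 8 steroid receptor and hormone-sensing luminal regulator genes were followed by name in all 10 libraries: *Esr1*, *Pgr*, *Foxa1*, *Gata3*, *Greb1*, *Cited1*, *Tbx3* and *Xbp1*. The study deleted the transcription factor gene *Cebpb* in CSF1R-expressing myeloid cells (*Csf1r-iCre* with floxed *Cebpb*, named CebpbΔM; the sample labels say C/EBPb knockdown) and set these mice against WT littermates that carried the floxed allele without Cre. All mice were BALB/c females of 10 weeks in the diestrus stage, and the cells came from mammary glands 3, 4 and 5 with the lymph nodes taken out. Mammary epithelial cells (MECs), purified by removing lineage-positive cells, gave 2 CebpbΔM libraries (numbered 1 and 3) and 2 WT libraries (1 and 3). Cells bound by an F4/80 positive selection, called macrophages, gave 4 CebpbΔM libraries (4, 5, 6 and 7) and 2 WT libraries (4 and 5). In the MEC libraries the deletion is thus aimed at cells other than those sequenced, and *Csf1r-iCre* acts in CSF1R-expressing myeloid cells in general.

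Estrogen and progesterone act on the mammary epithelium through a subset of luminal cells that hold estrogen receptor alpha (encoded by *Esr1*) and progesterone receptor (*Pgr*). These hormone-sensing cells pass the signal to their neighbours by secreted factors such as amphiregulin (*Areg*), RANKL (*Tnfsf11*) and *Wnt4*. *Foxa1* encodes a pioneer factor that opens chromatin for the estrogen receptor, *Gata3* a zinc finger factor needed for the luminal lineage, *Greb1* an estrogen-induced coactivator, *Cited1* a transcriptional coregulator of the receptor, *Tbx3* a T-box factor needed for mammary placode formation, and *Xbp1* a bZIP factor that is a target of the unfolded protein response and is also induced by estrogen.

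On GRCm38, *Esr1* (ENSMUSG00000019768) lies on chromosome 10 from 4611593 to 5005614 and *Pgr* (ENSMUSG00000031870) on chromosome 9 from 8899833 to 8968611. *Foxa1* (chromosome 12, 57540628 to 57546916), *Greb1* (chromosome 12, 16670615 to 16800886), *Gata3* (chromosome 2, 9857078 to 9890034) and *Cited1* (chromosome X, 102247381 to 102252181) are on the minus strand. *Tbx3* (chromosome 5, 119670669 to 119684724) and *Xbp1* (chromosome 11, 5520659 to 5525893) are on the plus strand. *Gata3* shares its span with 9230102O04Rik on the same strand, so that a read in a shared exon belonged to neither gene alone. *Greb1* likewise shares its span with the miRNA gene Gm44305 on the same strand. Genes on the opposite strand overlap *Gata3* (the antisense gene Gm13256 and the protein-coding 4930412O13Rik), *Greb1* (the antisense gene Gm48140) and *Tbx3* (the antisense gene Tbx3os1), and the counting was strand-specific.

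*Pgr* and *Cited1* had the highest fitted MEC-to-macrophage ratios of the 8 genes in both genotypes, as described further on, and the 250 bases before their start sites are shown for that reason (RefSeq table, GRCm38.p6). The *Pgr* stretch is chr9:8899583-8899832 on the plus strand, and the *Cited1* stretch is chrX:102252182-102252431 on the minus strand. Capitals mark matches to any of the motifs searched, of which the *Pgr* stretch holds none.
Pgr: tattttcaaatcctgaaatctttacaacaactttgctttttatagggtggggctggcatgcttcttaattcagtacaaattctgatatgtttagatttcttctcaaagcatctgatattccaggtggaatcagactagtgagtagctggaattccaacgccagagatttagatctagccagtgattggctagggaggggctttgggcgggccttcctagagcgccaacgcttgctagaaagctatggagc
Cited1: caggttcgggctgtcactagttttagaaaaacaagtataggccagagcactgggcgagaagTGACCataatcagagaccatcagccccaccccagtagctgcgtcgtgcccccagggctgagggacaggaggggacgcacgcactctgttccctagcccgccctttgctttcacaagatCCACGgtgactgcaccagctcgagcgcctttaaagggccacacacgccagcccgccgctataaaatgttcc
The motifs were the full estrogen response element (GGTCA and its inverted copy 3 bases apart, which contains the next motif), GGTCA alone, TGTTTAC for forkhead factors, AGATAA for GATA factors, TTGCNNCAA for C/EBP factors and CCACG, the core of the unfolded protein response element, each on both strands. The table held 11 windows, each from 250 bases before to 50 after a start, for 7 of the 8 genes. GGTCA was in 7 of the 11 windows, beside 40.5% of all 32851 windows. In *Foxa1* it stood 210 bases before the start, and in *Esr1* 16 bases after it. TGTTTAC was in 1 window, that of *Foxa1*, beside 3.65% of all windows. CCACG was in 2 windows, both of *Cited1*, beside 32.8%. The full estrogen response element (0.07% of all windows), AGATAA (11.2%) and TTGCNNCAA (2.08%) were in 0 of the 11. These are letter matches in short windows, and binding was not measured.

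The MEC libraries held 25310926 to 27008166 counts and the macrophage libraries 16935000 to 20174722, so that 3 counts correspond to 0.111 to 0.177 counts scaled to library totals (CPM), a limit that covers counting error only. *Cebpb* itself had few counts in every library, with 69 and 42 counts in the CebpbΔM MEC libraries, 25 and 28 in the WT MEC libraries, 16, 13, 5 and 4 in the CebpbΔM macrophage libraries 4 to 7 and 13 and 15 in the WT macrophage libraries. Both CebpbΔM MEC libraries lay above both WT MEC libraries, the macrophage genotypes overlapped at these counts, and the genotype of each library rests on its label. The summed level of 9 macrophage markers was 32.2 to 43.5 CPM in the MEC libraries and 7930 to 14721 CPM in the macrophage libraries, and that of 7 broad epithelial markers was 23609 to 30799 CPM in MECs and 3976 to 7287 CPM in macrophage libraries. The macrophage libraries thus held epithelial transcripts, and also fibroblast markers (2389 to 5158 CPM summed over 5 genes, beside 4386 to 5328 in MECs) and endothelial markers (563 to 1271 CPM over 4 genes, beside 51.4 to 74.5). CebpbΔM macrophage library 4 stood apart from the other 5 macrophage libraries by *Csn2*, a milk protein gene, at 238.0 CPM (0 to 16.7 CPM in the other 5) and *Krt14*, a basal keratin, at 691.6 CPM (41.4 to 365.2 CPM). In such bulk samples, fewer cells of a type and less RNA per cell cannot be told apart.

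Per length, as RPKM (TMM-scaled CPM per kilobase of exon), the 8 genes covered a wide range of levels. In WT MECs *Cited1* was at 157.5 ± 96.8 RPKM (SD, n = 2), *Xbp1* at 131.0 ± 27.0 and *Gata3* at 97.9 ± 21.2, and the spreads of these 3 overlapped. *Tbx3* followed at 13.2 ± 0.83 RPKM and *Pgr* at 9.51 ± 0.69, each clear of its neighbours by more than the SD. *Esr1* (6.39 ± 1.44 RPKM) and *Foxa1* (6.0 ± 0.043) did not differ beyond their spread, and *Greb1* was lowest at 0.367 ± 0.25 RPKM. In WT macrophage libraries the order began with *Gata3* (124.5 ± 2.94 RPKM), *Xbp1* (111.7 ± 3.25) and *Cited1* (75.6 ± 39.0), and *Tbx3* (11.7 ± 1.4 RPKM), *Esr1* (5.42 ± 1.89), *Pgr* (4.74 ± 0.21), *Foxa1* (4.72 ± 0.084) and *Greb1* (0.332 ± 0.063) followed. *Cited1* had rank 1 in both MEC groups and rank 3 in both macrophage groups, and *Greb1* ranked last in all 4 groups.

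**Figure D1:**
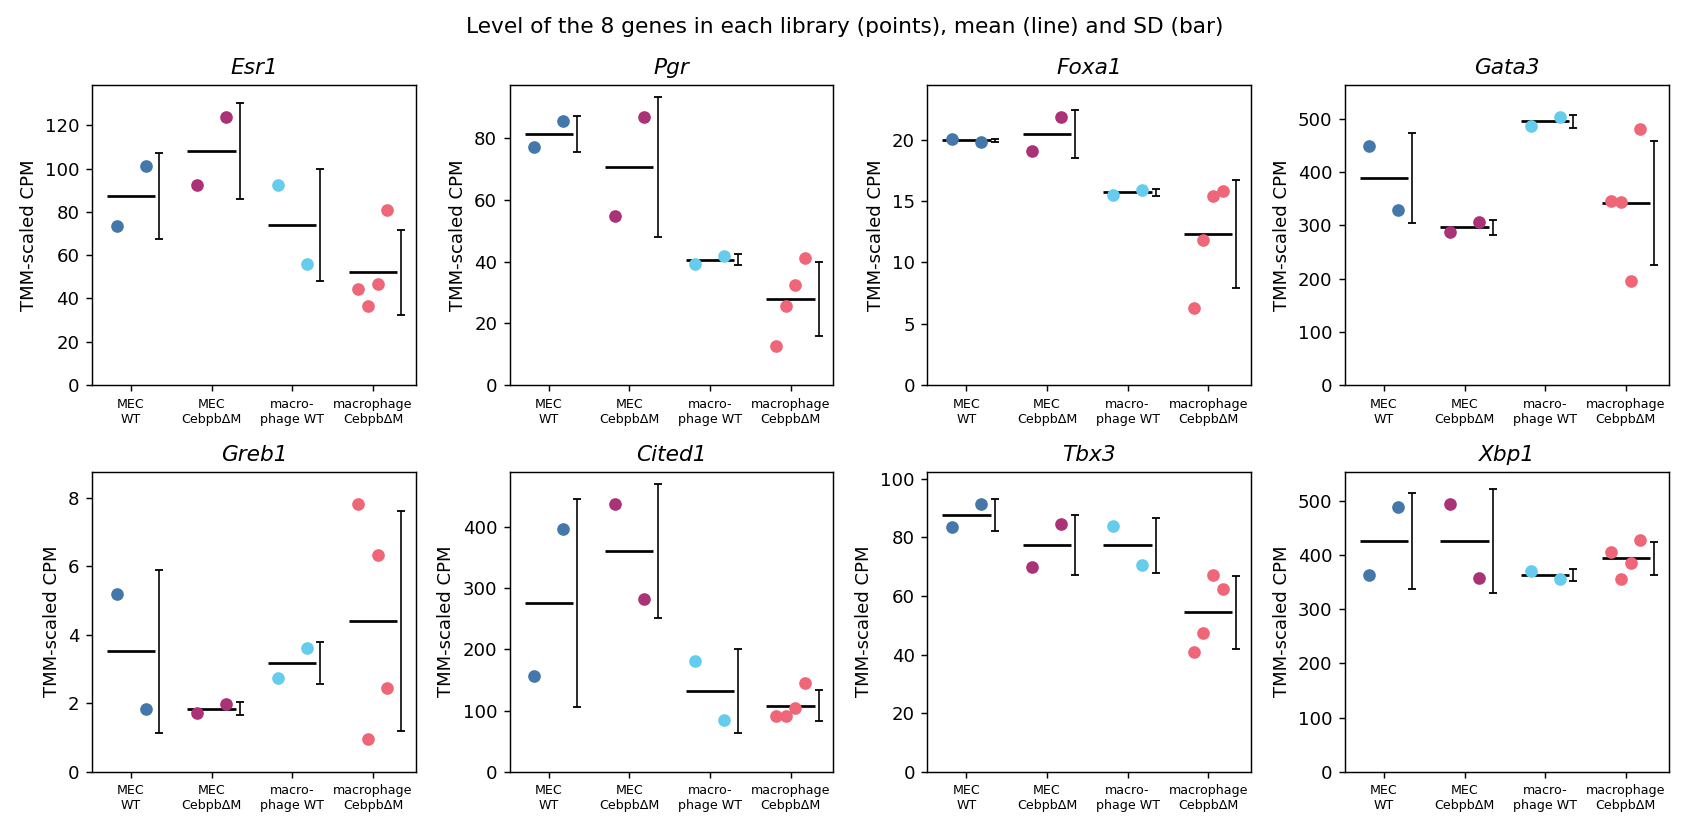
Level of each of the 8 genes in TMM-scaled CPM (linear axes from 0), 1 point per library, by cell type and genotype, with the group mean as a line and the SD as a bar. *Pgr* in all 6 macrophage libraries (12.5 to 41.8 CPM) sits below all 4 MEC libraries (54.7 to 86.8 CPM), while the *Gata3* and *Xbp1* values of macrophage and MEC libraries overlap.

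The first comparison asked whether macrophage deletion of *Cebpb* goes with altered receptor and regulator transcripts in the epithelium. None of the 8 genes passed an adjusted *P* of 0.05 in MECs (edgeR quasi-likelihood, or QL, test), where 0.0446% of the 15698 genes tested were called higher and 0.00637% lower in CebpbΔM, 8 genes in all and 851 at an unadjusted *P* under 0.05. *Esr1* was at 92.5 and 123.8 CPM in CebpbΔM and 73.4 and 101.2 CPM in WT libraries 1 and 3. The genotypes overlapped, with a log2 fold change of 0.33 (SE 0.24, adjusted *P* = 0.99974 in the QL test, as for all 8 genes). *Pgr* was at 54.7 and 86.8 CPM in CebpbΔM and 77.1 and 85.4 CPM in WT. CebpbΔM library 1 was the low one, the WT values lay between the CebpbΔM values, and the log2 fold change was -0.17 (SE 0.25). Without that library it was 0.14, so the sign of the *Pgr* difference rested on 1 library.

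*Gata3* was the one gene of the 8 whose MEC genotypes did not overlap. Its level was 286.8 and 306.5 CPM in CebpbΔM and 449.0 and 329.6 CPM in WT. Both CebpbΔM libraries lay below both WT libraries, with a log2 fold change of -0.37 (SE 0.23). A gap of this kind was found in 28.7% of the genes tested, so 1 of 8 is no more than the background. An exact permutation test of 2 against 2 libraries cannot give a two-sided *P* below 0.333.

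*Foxa1* varied little in MECs, with 19.1 and 21.8 CPM in CebpbΔM and 20.1 and 19.8 CPM in WT (log2 fold change 0.058, SE 0.24). *Tbx3* was at 70.1 and 84.7 CPM in CebpbΔM and 83.7 and 91.5 CPM in WT (log2 fold change -0.16, SE 0.21). *Xbp1* was at 494.2 and 358.2 CPM in CebpbΔM and 363.5 and 487.6 CPM in WT. The 2 libraries of each genotype lay far apart for *Xbp1*, in mirror order, and the log2 fold change was 0.017 (SE 0.25).

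*Cited1* and *Greb1* were the most uneven of the 8 genes between the WT MEC replicates. *Cited1* was at 438.1 and 283.0 CPM in CebpbΔM and 156.2 and 396.3 CPM in WT, and WT library 1 was the low one. Its log2 fold change was 0.39 (SE 0.37) and turned to -0.13 without WT library 1. *Greb1* was at 1.70 and 1.98 CPM in CebpbΔM and 5.20 and 1.82 CPM in WT, where again WT library 1 stood out, this time as the high one. The log2 fold change was -0.90 (SE 0.50) and 0.024 without WT library 1.

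Targets of the receptors were read beside them, from a list of 8 progesterone response genes that includes *Tnfsf11*, *Wnt4* and *Calca*, which the study picked from these MEC libraries, so that their direction is not independent evidence. In MECs, 2 of 8 were called higher (*Tnfsf11* and *Calca*), beside 0.0446% of all genes tested, and none was called lower. The median log2 fold change was 1.17, beside -0.0078 over all genes tested. Both called genes exceeded 1 CPM in the 2 CebpbΔM libraries only, so they entered the fit only through the group where they were high. Their calls are therefore not read as support, and neither gene was tested with either CebpbΔM library left out. *Tnfsf11*, the RANKL gene, had 596 and 245 counts in CebpbΔM and 8 and 0 counts in WT libraries 1 and 3, or 24.2, 9.49, 0.323 and 0 CPM. All CebpbΔM values lay above all WT values, with a fitted log2 fold change of 6.67 (SE 0.76, adjusted *P* = 0.0146 in the QL test). *Calca*, the calcitonin gene, was at 3.04 and 6.35 CPM in CebpbΔM and 0.161 and 0.243 CPM in WT (log2 fold change 4.53, SE 0.59, adjusted *P* = 0.0275 in the QL test). Neither gene was called with library totals only (adjusted *P* = 0.218 in the QL test for both), with all 10 libraries in 1 fit, or without WT MEC library 3 (adjusted *P* = 0.0511 for *Tnfsf11* and 0.140 for *Calca* in the QL test), and DESeq2 gave *Tnfsf11* an adjusted *P* of 0.0765. *Wnt4* was at 65.9 and 39.4 CPM against 30.2 and 23.9 CPM, without overlap, a gap found in 28.7% of the genes tested. Its log2 fold change was 0.98 (SE 0.27, adjusted *P* = 0.291 in the QL test). The other 5, *Ccnd1*, *Adamts18*, *Fkbp5*, *Zbtb16* and *Sgk1*, did not pass, and all 8 values were above 0, the lowest being 0.085. In the same libraries *Pgr* itself overlapped between the genotypes, and whether its product acts on these 8 genes here was not tested.

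**Figure D2:**
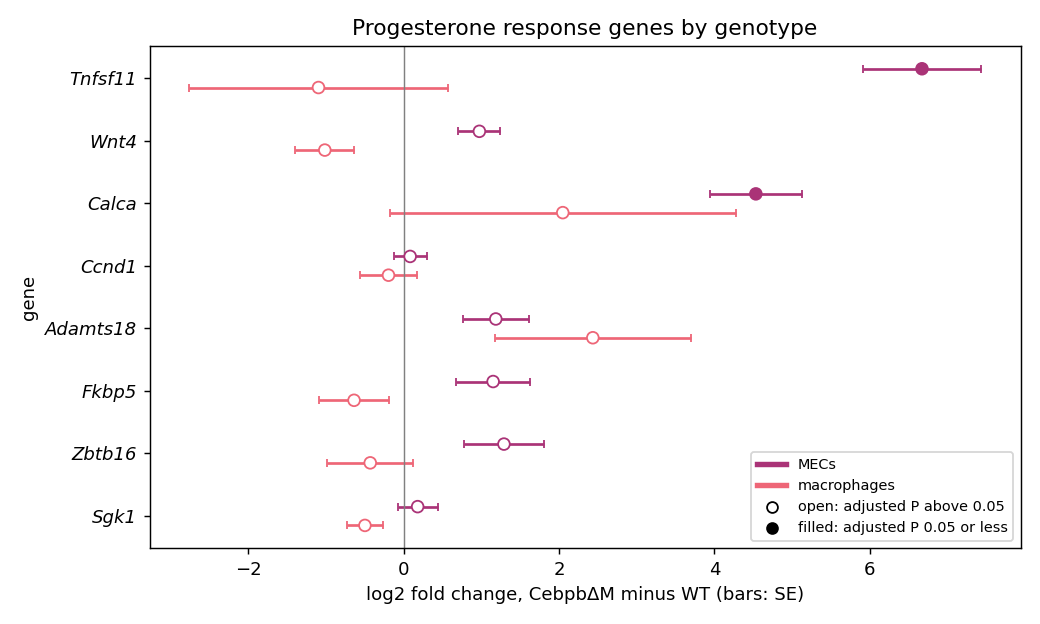
Log2 fold change (CebpbΔM minus WT, bars SE) of the 8 progesterone response genes in MECs (upper point of each pair) and macrophage libraries (lower point), where a filled point had an adjusted *P* up to 0.05. In MECs *Tnfsf11* (6.67) and *Calca* (4.53) are filled, and none is filled in macrophage libraries.

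The other lists gave no called gene in MECs by genotype. Of the estrogen response genes, 0 of 8 tested passed (median log2 fold change 0.11), and *Areg*, the epidermal growth factor family ligand downstream of estrogen receptor, was at 1279 and 828.7 CPM in CebpbΔM and 874.8 and 731.2 CPM in WT. Of other steroid receptors, 0 of 8 tested passed (median -0.15), and the glucocorticoid receptor gene *Nr3c1* was at 20.96 and 33.4 CPM in CebpbΔM and 34.01 and 31.3 CPM in WT. *Esr2*, the gene for estrogen receptor beta, had 0 to 1 count in each MEC library. Neither the coregulators and chaperones (0 of 11, median -0.14), the paralogs of the 8 genes (0 of 5 tested, median 0.64), the luminal regulators (0 of 12, median -0.14) nor the unfolded protein response genes around *Xbp1* (0 of 10, median 0.048) held a call. The prolactin receptor gene *Prlr* was at 1726 and 2301 CPM in CebpbΔM and 1795 and 2326 CPM in WT MECs.

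In macrophage libraries by genotype, 0 of the 8 genes and 0% of the 17772 genes tested were called, higher (0%) or lower (0%), by the QL test, while 1534 genes had an unadjusted *P* under 0.05 and the likelihood ratio test and DESeq2 called 138 and 201 genes, none of the 8 among them. Fitted log2 fold changes were below 0 for 6 of the 8 genes. *Tbx3* was at 40.7, 47.5, 67.1 and 62.3 CPM in CebpbΔM libraries 4 to 7 and 83.9 and 70.7 CPM in WT libraries 4 and 5. All CebpbΔM values lay below both WT values (log2 fold change -0.53, SE 0.23, adjusted *P* = 0.575 in the QL test). *Gata3* was at 346.0, 343.8, 195.6 and 480.9 CPM in CebpbΔM and 486.9 and 503.4 CPM in WT, again without overlap. CebpbΔM library 6 was the low one, and the log2 fold change was -0.56 (SE 0.30, adjusted *P* = 0.649 in the QL test). Such a gap was found in 18.7% of the genes tested, so 2 of 8 lay near the background, and 4 against 2 libraries allow no two-sided exact permutation *P* below 0.133.

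For *Esr1* the macrophage values were 44.3, 36.7, 46.6 and 80.6 CPM in CebpbΔM and 92.3 and 55.8 CPM in WT (log2 fold change -0.53, SE 0.33). CebpbΔM library 7 lay above WT library 5. *Pgr* was at 12.5, 25.6, 32.5 and 41.0 CPM in CebpbΔM and 39.3 and 41.8 CPM in WT (log2 fold change -0.56, SE 0.39), and *Foxa1* at 6.30, 11.8, 15.4 and 15.8 CPM against 15.5 and 15.9 CPM (log2 fold change -0.37, SE 0.36). In both genes CebpbΔM library 4, which stood apart by its milk protein and basal transcripts, was the lowest of all 10 libraries. Without it the log2 fold change was -0.32 for *Pgr* and -0.16 for *Foxa1*, and over all 16 alternatives it lay between -1.64 and -0.32 for *Pgr* and between -1.29 and -0.16 for *Foxa1*. *Cited1* was at 91.6, 90.8, 104.4 and 144.9 CPM against 181.1 and 84.3 CPM, and its log2 fold change of -0.32 (SE 0.32) turned to 0.33 without WT library 4.

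*Greb1* was the gene with the widest spread, at 7.82, 0.971, 6.33 and 2.46 CPM in CebpbΔM macrophage libraries and 2.75 and 3.61 CPM in WT. *Xbp1* was the most even, at 405.6, 355.3, 384.6 and 428.1 CPM against 370.3 and 355.4 CPM (log2 fold change 0.092, SE 0.15). The range over the 4 CebpbΔM libraries was 2.90 on the log2 scale for *Greb1* and 0.27 for *Xbp1*.

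Marker levels lay apart by genotype in the same libraries. The 3 luminal keratins *Krt8*, *Krt18* and *Krt19* summed to 4330 to 5574 CPM in CebpbΔM macrophage libraries and 8150 to 8526 CPM in WT, all 3 without overlap, and 9 macrophage markers summed to 9677 to 14721 CPM in CebpbΔM and 7930 to 8783 CPM in WT, with 5 of 9 higher without overlap, beside 18.7% of all genes without overlap. The 6 basal and myoepithelial markers went the other way from the luminal keratins, with fitted log2 fold changes above 0 for 6 of 6 (median 1.04), although all overlapped, and they summed to 705.2 to 2817 CPM in CebpbΔM and 764.7 and 1126 CPM in WT. Of the 6 luminal progenitor and alveolar genes tested, 4 had fitted log2 fold changes above 0 (median 0.39). The milk protein gene *Lalba* alone lay apart, higher in CebpbΔM without overlap (log2 fold change 2.81, SE 0.91, adjusted *P* = 0.517 in the QL test). That is 1 of 6, no more than the 18.7% of all genes. None of these markers was called. With the mean log2 level of the 7 broad epithelial markers as a covariate, the log2 fold change was -1.64 for *Pgr*, -1.29 for *Foxa1*, -0.90 for *Tbx3*, -0.51 for *Esr1* and -0.43 for *Gata3*. None of the 8 genes was called in that fit, and its values for *Cited1*, *Greb1* and *Xbp1* are not given here. In sum the 7 broad epithelial markers did not overlap between the genotypes (3976 to 5198 CPM in CebpbΔM and 7091 and 7287 CPM in WT). The covariate, a mean over log2 levels, did overlap. CebpbΔM library 4 lay above WT library 5 in *Epcam* (644.6 and 418.4 CPM), *Cdh1*, *Cldn3*, *Cldn4* and *Cldn7*, and below it in *Krt8* and *Krt18*. The part of the macrophage markers in the adjusted fold changes was not tested. Among the pathway lists 0 genes were called in macrophage libraries. Medians were -0.46 for progesterone response, -0.13 for estrogen response and -0.20 for luminal regulators and hormone-sensing luminal genes, beside 0.0040 over all genes tested. *Wnt4* was at 13.1, 17.0, 11.3 and 30.7 CPM in CebpbΔM and 38.2 and 33.4 CPM in WT macrophage libraries, and *Areg* at 108.1, 140.0, 64.9 and 232.6 CPM against 308.7 and 230.8 CPM. *Tnfsf11* was at 0 to 8.06 CPM in CebpbΔM and 13.2 and 0 CPM in WT. *Calca* ranged widely, from 0 to 315.9 CPM in CebpbΔM and from 1.71 to 51.0 CPM in WT macrophage libraries. In MECs it was at 3.04 to 6.35 CPM in CebpbΔM and 0.161 to 0.243 CPM in WT.

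The genotype difference was then compared between MECs and macrophage libraries, as an interaction term in the fit of 10 libraries. It was called for 0 of the 8 genes and for 0% of 18323 genes as higher and 0% as lower by the QL test, with 951 genes at an unadjusted *P* under 0.05, and the likelihood ratio test and DESeq2 called 53 and 27 genes. *Esr1* had the smallest adjusted *P* of the 8 genes. Its genotype difference was 0.82 lower on the log2 scale in macrophage libraries than in MECs (SE 0.49, adjusted *P* = 0.99 in the QL test). For *Pgr* the interaction was -0.34 (SE 0.56) and for *Greb1* 1.4 (SE 1.1).

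The cell type comparisons set MECs against macrophage libraries within a genotype. Cell type, isolation and count table go together in this design and cannot be told apart. In WT, 10.7% of 18323 genes were called higher in MECs and 14.8% lower, and all 7 broad epithelial markers were called higher, with log2 fold changes of 1.20 to 2.72. None of the 8 receptor and regulator genes was called. *Pgr* had a log2 fold change of 1.0 (SE 0.43, adjusted *P* = 0.111 in the QL test), with both MEC libraries above both macrophage libraries. It passed (adjusted *P* = 0.0132 in the QL test) when the WT libraries were fitted alone. *Cited1* had 1.06 (SE 0.46, adjusted *P* = 0.115 in the QL test) with overlap, and passed without WT MEC library 1 (log2 fold change 1.58) or WT macrophage library 4 (1.67) and in DESeq2. *Foxa1* lay higher in MECs without overlap (0.35, SE 0.37) and *Gata3* lower without overlap (-0.35, SE 0.33), and neither passed. The share of all genes with such a gap between cell types was not counted, so these gaps are not read as a trait of the 8 genes.

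In CebpbΔM, 14.7% of genes were called higher in MECs and 18.9% lower, and 3 of the 8 genes were called, all higher in MECs. *Cited1* had a log2 fold change of 1.74 (SE 0.38, adjusted *P* = 0.00464), *Pgr* 1.34 (SE 0.36, adjusted *P* = 0.0136) and *Esr1* 1.06 (SE 0.31, adjusted *P* = 0.0225) in the QL test, and the 2 MEC libraries lay above all 4 macrophage libraries in each. *Foxa1* (0.73, SE 0.31) and *Tbx3* (0.51, SE 0.21) also did not overlap and did not pass, at adjusted *P* of 0.0958 and 0.0905 in the QL test. As in WT, the share of all genes with such a gap was not counted. *Gata3* (-0.20, SE 0.29), *Greb1* (-1.25, SE 0.75) and *Xbp1* (0.12, SE 0.19) overlapped. The call of *Esr1* was lost without CebpbΔM MEC library 1 or 3 or macrophage library 5, that of *Cited1* without MEC library 1 and that of *Pgr* without MEC library 3, where the adjusted *P* reached 0.164, 0.0703 and 0.144. Whether these 3 genes differ more between cell types in CebpbΔM than in WT is the interaction above, which was called for none of them.

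**Figure D3:**
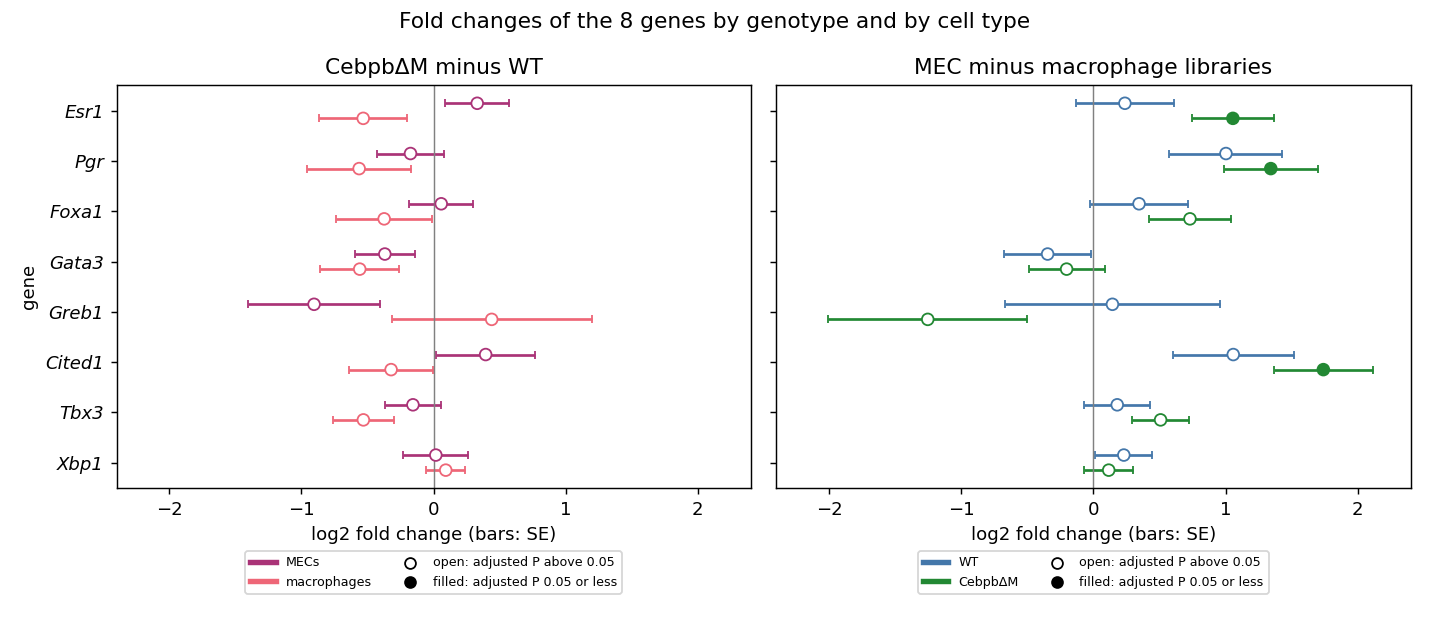
Log2 fold changes (bars SE) of the 8 genes between genotypes (left) and between MEC and macrophage libraries (right), where a filled point had an adjusted *P* up to 0.05 (QL test). The filled points are *Cited1* (1.74), *Pgr* (1.34) and *Esr1* (1.06) in CebpbΔM, and no point is filled on the left.

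Levels in macrophage libraries were expressed as a percent of the mean MEC level of the same genotype, as a description with no test. The 8 genes and 7 broad epithelial markers held different places. In WT, the means per gene ran from 48.0% (*Cited1*) to 127.2% (*Gata3*) with a median of 85.0% over the 8 genes, while the 7 broad epithelial markers ran from 15.2% (*Cldn4*) to 43.5% (*Cldn3*) with a median of 26.4%. In CebpbΔM, the median was 65.3% for the 8 genes and 18.1% for the markers. There the median log2 fold change, MEC minus macrophage libraries, was 0.62 for the 8 genes and 2.47 for the broad markers. It was 0.53 for 6 basal markers, 0.78 for 6 luminal progenitor and alveolar genes and 0.996 for 12 luminal regulators and hormone-sensing luminal genes. In WT these medians were 0.23, 1.92, 1.86, 2.99 and 0.95, in that order. In CebpbΔM small differences between the cell types were thus not particular to the 8 genes. *Xbp1* was at 83.5% and 87.0% in the WT and 83.4% to 100.5% in the CebpbΔM libraries. *Gata3* was at 125.1% and 129.3% in WT and at 65.9% to 162.1% in CebpbΔM. T cells and innate lymphoid cells also express *Gata3*, and 7 markers of these cells summed to 4.26 to 7.01 CPM in MEC, 30.2 and 32.4 CPM in WT macrophage and 22.1 to 46.6 CPM in CebpbΔM macrophage libraries, with *Thy1* the highest (9.58 to 26.3 CPM in macrophage libraries) and *Cd3g* and *Cd8a* at 0 in 4 macrophage libraries each. Their part in the *Gata3* level was not tested. *Pgr* came closer to the markers, at 48.3% and 51.5% in WT and 17.7% to 58.0% in CebpbΔM, and *Cited1* was at 30.5% and 65.5% in WT and 25.2% to 40.2% in CebpbΔM. *Krt8* was at 24.4% and 28.3% in WT and 14.2% to 17.1% in CebpbΔM. Each of the 8 genes had a higher mean percent than *Krt8* and *Krt18* in both genotypes. Which cells in the macrophage libraries carried these transcripts was not tested.

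**Figure D4:**
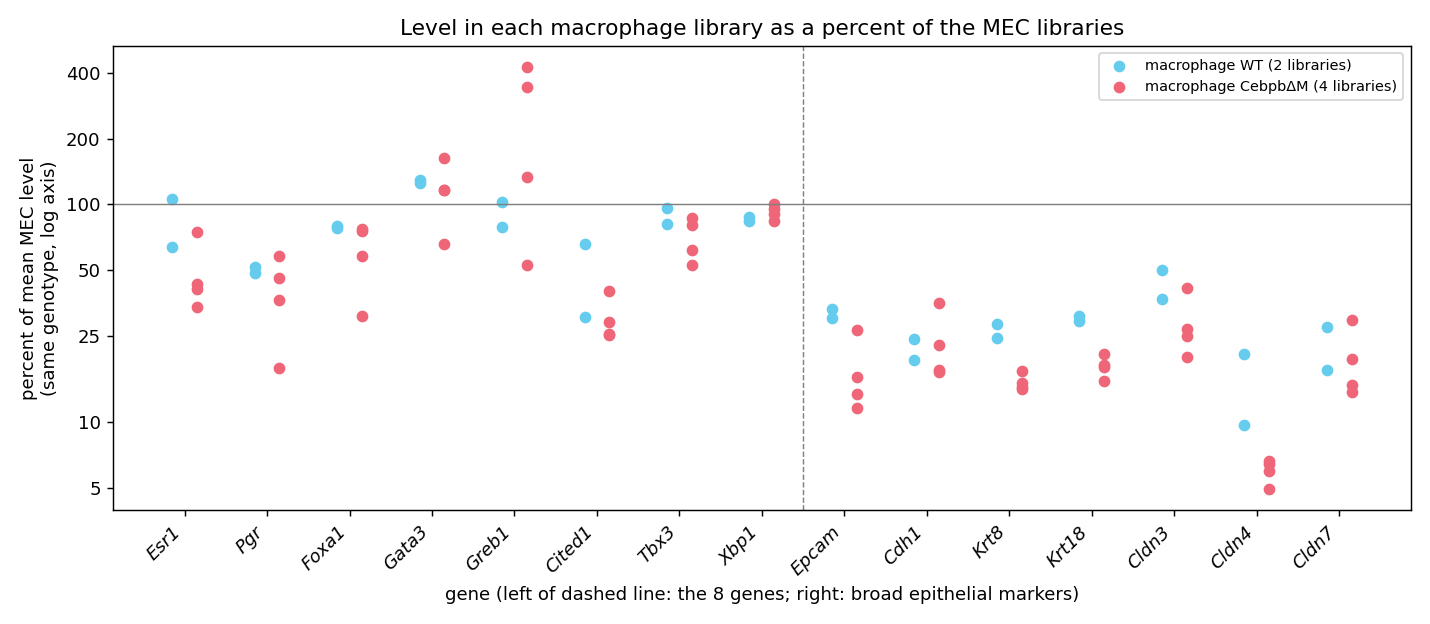
Level in each macrophage library as a percent of the mean MEC level of the same genotype (log axis), for the 8 genes and 7 broad epithelial markers, 1 point per library. In WT the 8 genes have a median of 85.0% and the markers 26.4%, and in CebpbΔM 65.3% and 18.1%.

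Related genes also differed between the cell types, in counts that are read against the 10.7% of all genes called higher and 14.8% called lower in WT MECs and the 14.7% and 18.9% in CebpbΔM. In lists of this size, 1 or 2 called genes lie near that background. Of other steroid receptors, *Pgrmc1* and *Esrrg* were called higher in WT MECs and *Gper1*, a membrane estrogen receptor gene, and *Nr3c1* lower, and in CebpbΔM *Pgrmc1* was called higher and *Gper1* and *Nr3c1* lower. *Nr3c1* was at 20.96 to 34.01 CPM in MEC and 59.5 to 101.4 CPM in macrophage libraries (log2 fold change in WT -1.11, SE 0.29, adjusted *P* = 0.0160 in the QL test), and lost its WT call without MEC library 1 or 3 or macrophage library 5 (adjusted *P* up to 0.104 in the QL test). Of the paralogs, *Gata2* was called lower in MECs in both genotypes, at 0.608 to 1.38 CPM in MEC and 7.62 to 16.4 CPM in macrophage libraries. Of 12 luminal regulators and hormone-sensing luminal genes, 4 were called higher in WT MECs (*Elf3*, *Runx1*, *Tfap2a* and *Ly6a*), beside 10.7% of all genes. In CebpbΔM 7 of the 12 were called higher, beside 14.7% of all genes, and 0 were called lower in either genotype.

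Of the estrogen response genes, 2 of 9 were called higher in WT MECs (*Nrip1*, a receptor corepressor gene, and *Areg*) and 2 lower (*Igfbp4* and *Cxcl12*), and the same counts held in CebpbΔM. The counts of this paragraph stand beside the same shares of all genes, 10.7% higher and 14.8% lower in WT MECs and 14.7% and 18.9% in CebpbΔM. In lists of this size 2 calls lie near them. *Areg* was at 731.2 to 1279 CPM in MEC and 64.9 to 308.7 CPM in macrophage libraries, and its WT call was lost without any 1 of the 4 WT libraries (adjusted *P* of 0.0686 to 0.171 in the QL test) while its call in CebpbΔM was kept under every alternative run. Of the progesterone response genes, *Sgk1* was called higher and *Fkbp5* lower in WT MECs, and *Sgk1* and *Wnt4* higher in CebpbΔM, where *Wnt4* lost its call without MEC library 1 (adjusted *P* = 0.108 in the QL test). Of 11 coregulators and chaperones, the chaperone genes *Hsp90ab1* and *Hsp90aa1* were among 3 called higher and *Ncor1* was called lower in WT MECs, and 2 were called higher and 1 lower in CebpbΔM. Around *Xbp1*, the unfolded protein response genes *Sdf2l1* and *Edem1* were called lower and *Atf4* higher in WT MECs, and in CebpbΔM 1 of 10 was called higher and 3 lower. *Prlr* was at 1726 to 2326 CPM in MEC and 477.5 to 1508 CPM in macrophage libraries, with a call in CebpbΔM (log2 fold change 1.24, SE 0.37, adjusted *P* = 0.0245 in the QL test, and up to 0.156 without MEC library 1 or 3 or macrophage library 5) and none in WT (0.56, adjusted *P* = 0.388).

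Likeness of pattern was measured as the root mean square difference of log2 CPM over the 10 libraries after each gene was centred on its mean. Within the 8 genes the closest pair was *Foxa1* and *Tbx3* (0.231) and the farthest *Greb1* and *Cited1* (1.45), and *Esr1* and *Pgr* were 0.509 apart. Among 18322 other genes, the nearest to *Esr1* were *Tmem205* (0.217), *Nek7* (0.220) and *Dnaja4* (0.221), and the nearest to *Pgr* were *Gm12744* (0.206), *Slc22a18* (0.236) and *Ppm1j* (0.245). These distances describe 10 libraries that share cell type, genotype and depth in blocks.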

How the data were processed

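RNA-seq of MECs and macrophages was low-input, on the DNB-seq platform with paired reads of 150 bp. Per the study's methods, the authors trimmed reads with Trimmomatic, aligned them to GRCm38 with HISAT2 and counted them per gene with featureCounts. Per the file headers, counting used version 1.6.2, Ensembl release 100, reverse-stranded reads and a minimum mapping quality of 10. What the authors deposited are unnormalized read counts, whole numbers for each gene and library. The header of the MEC table names further libraries, which were not analysed here.

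A gene entered a fit if it was 300 nt or longer and exceeded 1 CPM in 2 or more of its libraries. Counts were scaled by trimmed mean of M-values (TMM) and tested in edgeR 4.0.16 (R 4.3.3) by the quasi-likelihood (QL) test, with Benjamini-Hochberg adjustment over all genes tested and calls at an adjusted *P* of 0.05 or less. The authors used edgeR's likelihood ratio test, which is an alternative here, as is DESeq2 (version 1.42.0). Genotypes were compared within each cell type, and the cell type comparisons and the interaction came from a single fit over 10 libraries. Levels are CPM with TMM factors over 10 libraries, means ± SD. Symbols came from GENCODE M21 (55141 of 55487 genes). The labels do not say whether replicates came from separate animals, so *P*-values measure the spread between these samples, which may be technical.

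Followed genes, lists and markers were chosen with earlier results of these data known. Named genes were the 8 genes, a fixed set (*Tnfsf11*, *Wnt4*, *Calca*, *Areg*, *Nr3c1*, *Esr2*, *Prlr*, *Cebpb*), called genes of each list with the smallest *P* (at most 5), and the 3 genes nearest in pattern to *Esr1* and to *Pgr*. Some genes the rule names are not reported here. Markers named for library 4 were chosen after their values were seen.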

Additional observations from a re-analysis of the deposited data

Results flagged for a closer look

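*Wnt4*, a progesterone-induced ligand, had genotype differences of opposite sign in the cell types. Both CebpbΔM MEC libraries (65.9 and 39.4 CPM) lay above both WT libraries (30.2 and 23.9 CPM), and all 4 CebpbΔM macrophage libraries (11.3 to 30.7 CPM) lay below both WT libraries (33.4 and 38.2 CPM). Such gaps were found in 28.7% of genes in MECs and 18.7% in macrophage libraries, and the study picked *Wnt4* from these MEC libraries. Luminal keratins also summed lower in CebpbΔM macrophage libraries (4330 to 5574 CPM against 8150 to 8526 CPM), while 6 of 6 basal markers had fitted values above 0. The part of epithelial transcripts in the *Wnt4* level was not tested. The difference between the 2 genotype effects, macrophage minus MEC, was -1.95 on the log2 scale (SE 0.56, adjusted *P* = 0.833 in the edgeR QL test), so it did not pass the correction.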

How the results depend on the processing

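Of 632 refits of the 8 genes over all comparisons and alternatives, 602 kept the direction and the side of the threshold, 19 reversed, 6 gained and 5 lost a call, and no gene of the 8 was called by genotype under any alternative. Where leaving out a library left 1 sample in a group, that sample was assumed to vary like the other groups.

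The number of genes called by MEC genotype was 8, and 179 by the likelihood ratio test, 161 by DESeq2, 38 without a low-count filter, 0 with library totals only, 0 with all 10 libraries in 1 fit and 2 to 338 when 1 library was left out (42 without CebpbΔM library 1, 338 without 3, 98 without WT library 1, 2 without 3). By macrophage genotype it was 0, and 138 by the likelihood ratio test and 201 by DESeq2. For the interaction it was 0, and 53 and 27 by those tests and 0 to 1 with 1 library left out (1 without WT MEC library 3). Between cell types it was 4664 in WT (2456 to 4846 with 1 library left out, at most 3041 without MEC library 1 or 3 or macrophage library 5) and 6174 in CebpbΔM (3496 to 6556, lowest without MEC library 1). Of the 8 genes, 1 was called between cell types in WT by DESeq2 (*Cited1*) and 1 with the WT libraries alone (*Pgr*), and 0 to 1 with 1 library left out. In CebpbΔM 3 were called, and 1 to 4 with 1 library left out (1 without MEC library 1 or 3). The cause of these shifts was not tested.

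Same-numbered libraries deviated together with r = 0.106 in MECs and 0.129 (number 4) and -0.0865 (number 5) in macrophages, and 2 pairs in each cell type were too few to establish a pairing. The replicate block gave 205 genes by MEC genotype, 12 by macrophage genotype and 1 for the interaction, and a *Greb1* log2 fold change of -0.15 by macrophage genotype. No paired analysis was possible for the cell type comparisons because MEC and macrophage libraries share no number.

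Reversals came mostly with 1 library left out, where log2 fold changes by MEC genotype ran from -0.58 to 0.14 for *Pgr*, -0.073 to 0.18 for *Foxa1*, -1.45 to 0.024 for *Greb1*, -0.13 to 1.25 for *Cited1* and -0.21 to 0.27 for *Xbp1*, and by macrophage genotype from -0.77 to 0.33 for *Cited1*. For the interaction they ran from -0.63 to 0.033 for *Pgr*, -0.39 to 0.062 for *Gata3* and -0.11 to 0.37 for *Xbp1*. Between cell types they ran from -0.12 to 0.60 for *Esr1* and -0.80 to 0.71 for *Greb1* in WT, where *Greb1* was also -0.037 with library totals only, and from -0.13 to 0.33 for *Xbp1* in CebpbΔM. *Tbx3* passed between cell types in CebpbΔM without macrophage library 6, and *Pgr* in WT without CebpbΔM macrophage library 4.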
